A study of Mus musculus with 10 samples.

Results

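The transcripts of 10 neuronal tubulin and microtubule genes were followed in whole brains of *Arid1b* heterozygous (HT) and wild-type (WT) mice at postnatal day 3 (P3). They were chosen by symbol, through the Ensembl identifiers of the deposited table, as 10 of its 18444 genes. They comprise 1 α-tubulin (*Tuba1a*), 5 β-tubulin isotypes (*Tubb2a*, *Tubb2b*, *Tubb3*, *Tubb4a* and *Tubb5*), 3 proteins that bind and stabilise the microtubule wall (*Dcx*, *Map2* and *Mapt*) and 1 protein that destabilises microtubules (*Stmn1*). All 10 were in the table and passed the filter on low values. Both groups held 5 male C57BL/6N mice, with 1 mRNA library per mouse. HT mice carried 1 *Arid1b* allele with a CRISPR/Cas9 nickase edit in exon 5 that truncates the protein, present in every cell of the body, and their WT controls carried no edit. Pups came from crosses of heterozygous males with WT C57BL/6N females, and the labels give no litter or batch. ARID1B is a DNA-binding subunit of the BAF chromatin-remodelling complex.

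Microtubules are hollow tubes of α- and β-tubulin dimers. They form the tracks and the scaffold of axons, dendrites and migrating neurons. Mammals make several tubulin isotypes from separate genes, which differ mostly in an acidic tail at the C-terminus. That tail lines the outside of the tube, where enzymes add chains of glutamate and where motors and microtubule-associated proteins (MAPs) bind. Cells hold their tubulin supply steady in part through their mRNAs: when free dimers are in excess, a factor that includes TTC5 recognises the first residues of a nascent tubulin chain on the ribosome and the mRNA is degraded.

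The acidic tail is encoded by the last coding stretch of each β-tubulin gene. The last 60 coding bases before the stop codon are given below, 5′ to 3′ on the gene's own strand, from GENCODE M21 transcripts on GRCm38, with capitals for bases not matched to *Tubb2b* in an alignment of the whole coding sequences.
Tubb2b (chr13:34127474-34127533, minus strand): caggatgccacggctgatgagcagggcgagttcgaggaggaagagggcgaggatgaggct
Tubb2a (chr13:34074471-34074530, minus strand): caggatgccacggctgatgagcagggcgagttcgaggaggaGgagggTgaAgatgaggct
Tubb5 (chr17:35834985-35835044, minus strand): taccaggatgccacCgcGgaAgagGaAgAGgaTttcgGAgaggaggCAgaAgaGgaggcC
Tubb4a (chr17:57080693-57080752, minus strand): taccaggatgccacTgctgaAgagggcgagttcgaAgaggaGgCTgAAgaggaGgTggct
Tubb3 (chr8:123421620-123421679, plus strand): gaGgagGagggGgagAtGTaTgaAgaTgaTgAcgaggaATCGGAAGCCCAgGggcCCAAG
*Tubb2a* differed from *Tubb2b* at 3 of these 60 bases, *Tubb4a* at 10, *Tubb5* at 15 and *Tubb3* at 29. This stretch of *Tubb2a* matched that of *Tubb2b* at 95% of bases, and *Tubb3* was the least alike of the 4. Over the whole coding sequence *Tubb2a* was 96.5% identical to *Tubb2b*, and the other 3 isotypes were 83.6% to 84.5% identical to it.

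The opposite end of the coding sequence is the part read by autoregulation. The first 30 coding bases of the leading α- and β-tubulin members and of *Tubb3* are shown with the first 12 bases, the codons of that recognised start, in capitals.
Tuba1a (chr15:98951665-98953453, minus strand, joined across an intron): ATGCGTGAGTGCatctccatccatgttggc
Tubb2b (chr13:34130204-34130233, minus strand): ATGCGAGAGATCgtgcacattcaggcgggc
Tubb3 (chr8:123411606-123411635, plus strand): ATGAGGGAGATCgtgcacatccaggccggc

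Likeness between copies also bears on how firmly reads can be assigned to 1 gene. *Tubb2a* (chr13:34074274-34078007) and *Tubb2b* (chr13:34126748-34130466) are neighbours on the minus strand of chromosome 13. Of the 31-base words in the exons, 56.4% of those of *Tubb2a* and 45.9% of those of *Tubb2b* were found in another gene, in most cases the other of this pair. For *Tuba1a* (chr15:98949837-98953703) the share was 77.0%, with *Tuba1c* sharing the most (54.7%). For *Stmn1* (chr4:134468320-134473843) it was 42.6%, most of it with the processed copy *Gm11223*. The values of these 4 genes therefore rest on how reads were divided between copies and are uncertain to that extent. The same holds for *Tuba1b* (75.4% shared), *Tuba1c* (63.9%) and *Tubb4b* (64.6%), which are not members but enter the shares and ratios below. *Tubb3* (chr8:123411424-123422015), *Tubb4a* (chr17:57080066-57087782) and *Tubb5* (chr17:35833921-35838306) shared at most 4.43% of their words. *Dcx* (chrX:143855842-143933311) shared 0.632%, and *Map2* (chr1:66175273-66442583) and *Mapt* (chr11:104231390-104332090) shared none.

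Values are normalised read counts, the estimated reads of a gene divided by a size factor for the library, and summed to between 27.2 M and 29.03 M per library (M, 1000000). *Arid1b* itself checked the labels: 2372, 2230, 2253, 1505 and 2142 in HT 1 to HT 5 against 3386, 3155, 3597, 3429 and 3108 in WT 1 to WT 5, with no overlap (exact permutation p = 0.00794, two-sided, the smallest that 5 against 5 libraries allow). Its log2 fold change was -0.68 ± 0.11 (adjusted p = 0.390 in limma) and -0.57 without HT 4 (adjusted p = 2.47e-04). The library HT 4 stood apart from the other 9. Its genes lay a median of 0.21 (log2) away from their means over all libraries, where the other 9 lay 0.077 to 0.11 away, and the values without it are given beside those it moves. Summed levels of 15 neuronal marker genes ranged from 7105 to 7362 in WT and from 7110 to 7506 in HT. No marker of these or of the glial, progenitor, vascular, blood and meningeal lists was at 0 in any library.

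The members are among the most abundant mRNAs of the P3 brain. Levels per kilobase of transcript, scaled so that all genes sum to 1000000, allow a comparison between genes, and on this scale the 10 members together took 3.05% ± 0.077 (SD, n = 5) of the WT total and 3.00% ± 0.098 of the HT total. *Tuba1a*, the main α-tubulin of newly formed neurons, led with 11949 ± 562 in WT and ranked 7 of 18431 genes. *Tubb2b*, a β-tubulin needed for cortical neuron migration, followed at 3769 ± 66.7, so that *Tuba1a* exceeded it 3.17 ± 0.12 times. *Stmn1*, which binds free dimers and promotes disassembly, stood at 3610 ± 124.

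Below these came a group of close levels. *Mapt*, the axonal MAP known as tau, stood at 2567 ± 70.3. *Tubb2a* stood at 2524 ± 85.2, *Tubb5*, a β-tubulin that dividing progenitors also use, at 2403 ± 51.0, and *Tubb3*, the neuron-specific isotype used as a histological marker, at 2266 ± 61.4. Well under them lay *Map2*, the dendritic MAP, at 675 ± 29.4, *Tubb4a*, an isotype that oligodendrocytes and mature neurons use, at 419 ± 10.8, and *Dcx*, the doublecortin of migrating neurons, at 346 ± 24.4. The WT ranges of neighbours in this order overlapped for *Tubb2b* and *Stmn1*, for *Mapt* and *Tubb2a*, and for *Tubb2a* and *Tubb5*, and did not for the other 6 neighbouring genes. The place of *Mapt* depends on the transcript model. The one used has nearly no untranslated sequence (2250 bases). With the longest coding transcript of *Mapt* (5253 bases) the level is 1189 ± 33.8 and *Mapt* falls from place 4 to place 7. The lengths used for *Dcx* (9074 bases), *Map2* (6258) and *Tubb5* (2649) exceed the median of their coding transcripts (3607.5, 1945 and 1705.5). The same holds for *Mapt* (2250 against 1444.5), *Tubb3* (1868 against 1322) and *Stmn1* (1060 against 884.5). Shorter models would raise these levels, and the order with them was not computed.

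**Figure D1:**
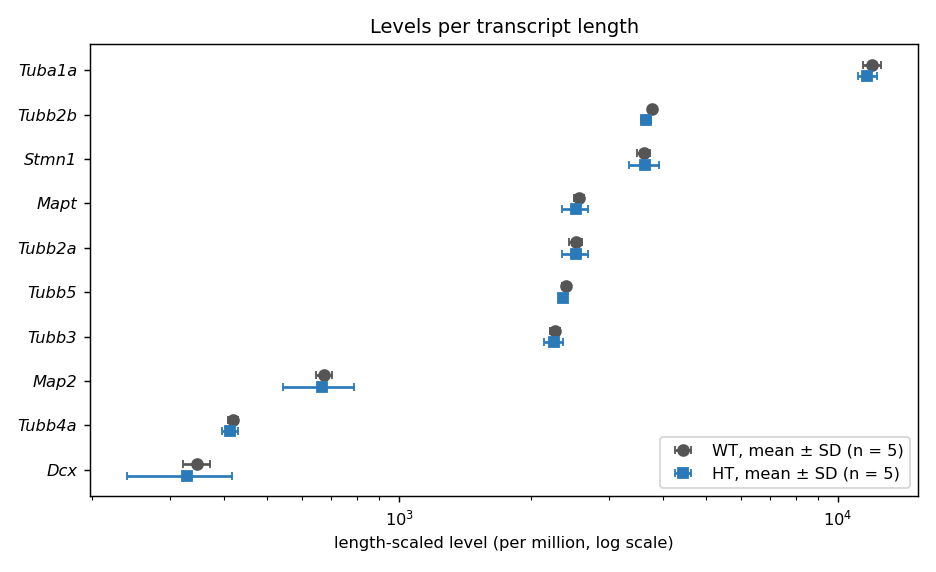
Length-scaled level of each member (horizontal axis, log scale, value per kilobase of transcript, scaled to a sum of 1000000 over genes), with circles for the WT mean, squares for the HT mean and bars of 1 SD over 5 mice. *Tuba1a* lies at 11949 in WT, 6 members lie between 2266 and 3769, and *Map2*, *Tubb4a* and *Dcx* lie below 700.

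The comparison of HT with WT asks whether loss of 1 *Arid1b* allele goes with a change in these transcripts at P3. None of the 10 members passed the test (limma, threshold of 0.05 on the p adjusted over 17020 genes, adjusted p = 1.00 for each), as was the case for every gene tested (0% called). At an unadjusted p under 0.05, 0 of the 10 members stood out against 3.41% of all genes (580, of which 251 were higher and 329 lower in HT). The exact permutation test of each member alone also gave 0 of 10 below 0.05, against 3.9% of genes, and in 0 of the 10 were the HT and WT libraries without overlap, against 0.629% of genes. The median log2 fold change of the members was -0.0022 (3 above and 7 below 0), beside -0.0074 over all genes tested. The 95% interval of the log2 fold change lay within 0.20 on either side of 0 for 8 of the 10 members, and was wider for *Dcx* and *Map2*. In bulk tissue, fewer cells of a type and less RNA per cell cannot be told apart.

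**Figure D2:**
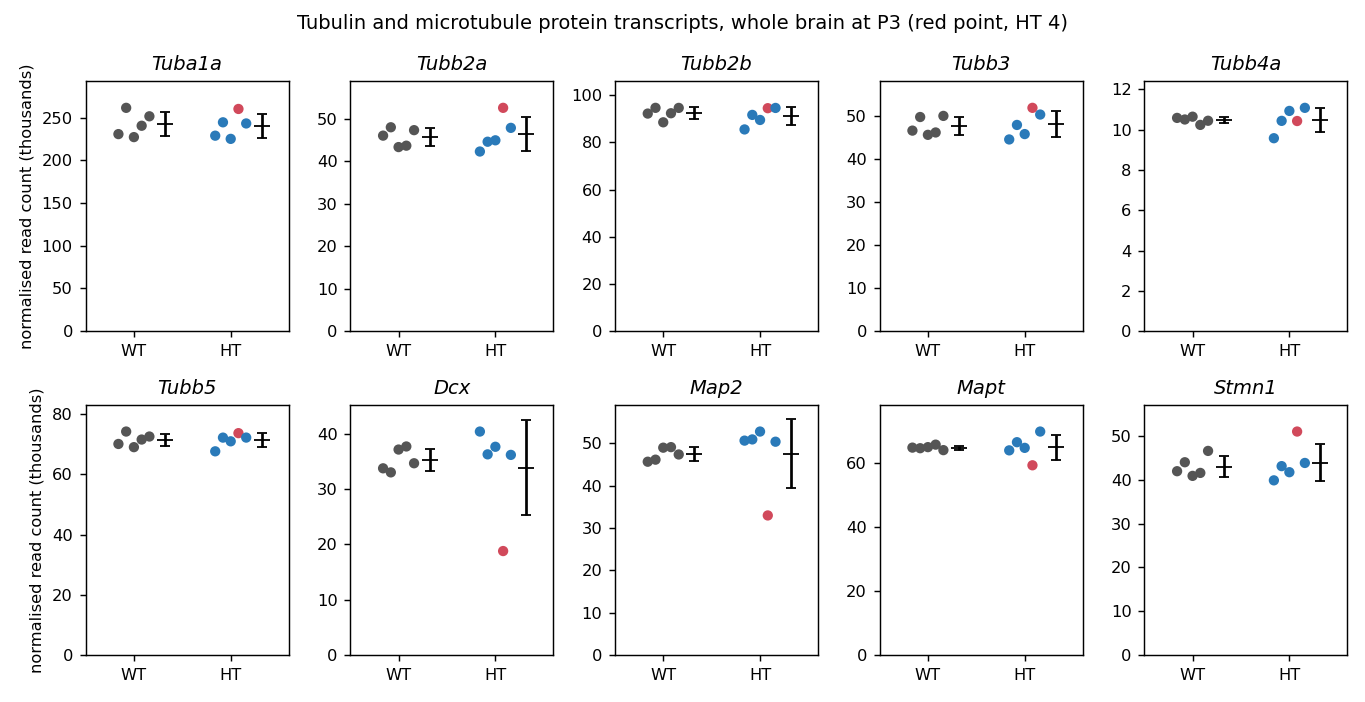
Normalised read count of each member in each library (1 panel per gene, vertical axis from 0), with HT and WT points, the group mean and bars of 1 SD, n = 5 mice per group. HT 4 is the red point and lies far below the other libraries for *Dcx* (18795) and *Map2* (32948).

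*Tuba1a* was counted at 228754, 244390, 225017, 260006 and 243050 in HT 1 to HT 5. The WT libraries gave 230596, 261318, 227071, 240362 and 251429 in the same order of number. The groups covered the same range, with WT 2 and HT 4 highest and HT 3 and WT 3 lowest. HT stood at 99.2% of WT, a log2 fold change of -0.011 ± 0.052 (SE, 95% interval -0.12 to 0.10, exact permutation p = 0.825) and -0.040 without HT 4.

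Among the β-tubulins, *Tubb2b* read 85438, 91593, 89451, 94435 and 94541 in HT 1 to HT 5. It read 92156, 94583, 88456, 92296 and 94555 in WT 1 to WT 5. HT 1 was the lowest and the others overlapped. The log2 fold change was -0.021 ± 0.041 (interval -0.11 to 0.068, exact permutation p = 0.532) and -0.035 without HT 4.

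*Tubb2a*, its near-identical neighbour, read 42300, 44603, 44937, 52580 and 47867 in HT and 46037, 48007, 43344, 43672 and 47328 in WT. HT 4 was the highest of the 10 and HT 1 the lowest, so that both extremes were HT. The log2 fold change was 0.022 ± 0.059 with HT 4 and -0.024 without it (exact permutation p = 0.738 and 0.619).

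*Tubb3* stood between 44485 and 51819 in HT and between 45557 and 49950 in WT. It had a log2 fold change of 0.013 ± 0.051 (interval -0.098 to 0.12) and -0.015 without HT 4. *Tubb5* stood between 67680 and 73721 in HT and between 69065 and 74257 in WT, with a log2 fold change of -0.0032 ± 0.039 (interval -0.088 to 0.082) and -0.015 without HT 4. Cycling progenitor markers, of a cell type that uses *Tubb5* and *Stmn1*, had summed levels of 157 to 238 in WT and 135 to 232 in HT, with 1 of 15 fitted above 0 and a median log2 fold change of -0.18, and their part in the *Tubb5* and *Stmn1* values was not tested.

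*Tubb4a* was the least abundant β-tubulin among the members, with 9571, 10432, 10925, 10424 and 11078 in HT. In WT it read 10578, 10500, 10639, 10232 and 10437. The WT libraries were close together (CV 1.5%) and lay inside the HT range (CV 5.61%). The log2 fold change was -5.5e-04 ± 0.046 (interval -0.10 to 0.099, exact permutation p = 0.976) and 0.0011 without HT 4. Oligodendrocyte markers ranged from 384 to 487 in WT and from 397 to 588 in HT in summed level, HT 4 being the highest, with 10 of 12 fitted above 0, and their part in *Tubb4a* was not tested.

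*Stmn1* read 39887, 43138, 41749, 51040 and 43860 in HT 1 to HT 5 and 41976, 44024, 40910, 41586 and 46614 in WT 1 to WT 5. HT 4 was again the highest, HT 1 was the lowest, and the other 3 HT libraries lay inside the WT range. The log2 fold change was 0.027 ± 0.064 (exact permutation p = 0.738) and -0.029 without HT 4.

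**Figure D3:**
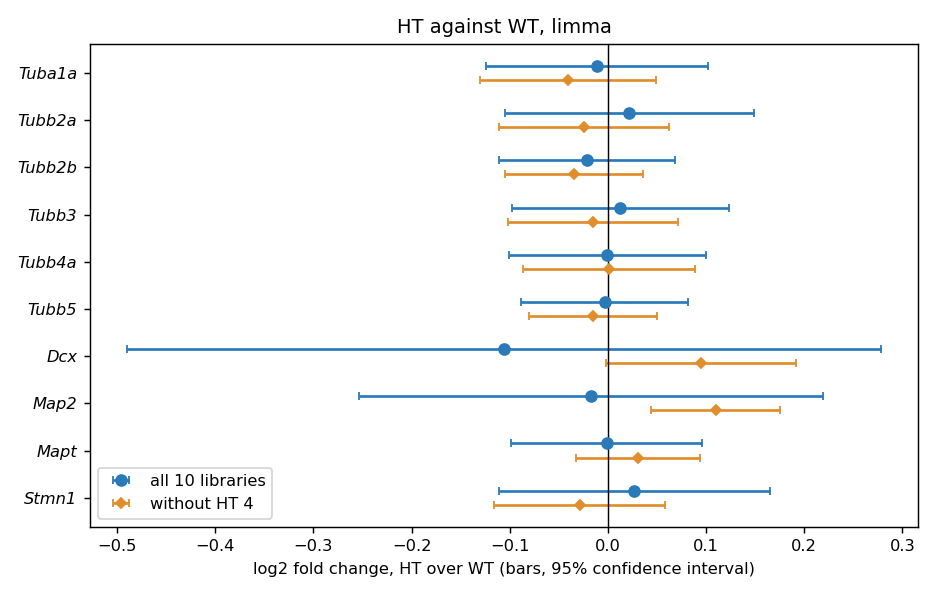
Log2 fold change of each member, HT over WT (horizontal axis, log2(value + 1) scale), from all 10 libraries and again without HT 4, with bars for the 95% interval of the limma fit. The intervals of all 10 members include 0 with 10 libraries, and that of *Map2* (0.044 to 0.18) does not without HT 4.

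Of the 3 stabilising MAPs, *Dcx* and *Map2* had the widest spread in HT of any member. *Dcx* read 40419, 36291, 37662, 18795 and 36194 in HT 1 to HT 5. The WT libraries read 33764, 33030, 37162, 37717 and 34680. HT 4 held less than any other library by a wide margin, and the remaining 4 HT libraries lay inside or above the WT range. The log2 fold change was -0.11 ± 0.18 over all 10 (interval -0.49 to 0.28, exact permutation p = 0.937) and 0.094 ± 0.045 without HT 4 (interval -0.0023 to 0.19, exact permutation p = 0.119, adjusted p = 0.599 in limma).

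*Map2* read 50624, 50907, 52770, 32948 and 50365 in HT 1 to HT 5. The WT libraries read 45639, 46125, 48956, 49086 and 47352. Apart from HT 4, every HT library lay above every WT library. Over all 10 the log2 fold change was -0.017 ± 0.11 (interval -0.25 to 0.22, exact permutation p = 1.00). Without HT 4 it was 0.11 ± 0.031 (51166 ± 1091 over 4 HT against 47432 ± 1580 over 5 WT, interval 0.044 to 0.18). This had an unadjusted p of 0.00295 and an adjusted p of 0.447 in limma and an exact permutation p of 0.0159, so that it did not pass over all genes. The adjusted p for *Map2* ranged from 0.447 to 1.00 over all alternatives run. *Map2* was the only member with an unadjusted p under 0.05 without HT 4, in the fit with no correction for length, where 8.38% of all genes had one (4.69% in the higher direction) and 2.96% had groups without overlap. After adjustment 0 of 10 members and 0.0118% of all genes (2) passed in that fit.

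*Mapt* read 63976, 66529, 64759, 59307 and 69862 in HT and 64833, 64647, 64984, 65765 and 64045 in WT. The WT libraries were the closest together of any member (CV 0.958%), while HT 4 was the lowest and HT 5 the highest. The log2 fold change was -0.0013 ± 0.045 (interval -0.099 to 0.096, exact permutation p = 0.937) and 0.031 without HT 4. In HT 4 the summed level of 9 forebrain neuron markers was 757, against 917 to 1031 in the other 9 libraries, and the part of this in the MAP values was not tested. In HT 4 the summed neuronal marker level was 7347, inside the range of the others.

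HT 4 deviated from the mean of the other 9 libraries in opposite directions across the members. *Stmn1* was 0.26 above on the log2 scale, *Tubb2a* 0.21, *Tubb3* 0.13 and *Tuba1a* 0.12. *Tubb2b*, *Tubb5* and *Tubb4a* deviated by 0.047, 0.051 and -0.0078. *Mapt* deviated by -0.14, *Map2* by -0.57 and *Dcx* by -0.95. The order followed transcript length: from *Stmn1* (1060 bases), which was highest in HT 4, to *Map2* (6258 bases) and *Dcx* (9074 bases), which were lowest (Spearman rho -0.915 over the 10 members, which share this library, given as a description). The cause was not tested. A further fit left HT 4 out and removed a smooth trend on transcript length and GC content from each library. In it the log2 fold change was 0.088 for *Map2* (unadjusted p = 0.0121, adjusted p = 0.508 in limma). It was 0.063 for *Mapt* (unadjusted p = 0.0461, adjusted p = 0.603) and 0.042 for *Dcx* (adjusted p = 0.803). Of all 17003 genes in that fit, 1375 had an unadjusted p under 0.05, and 843 of these were higher in HT.

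**Figure D4:**
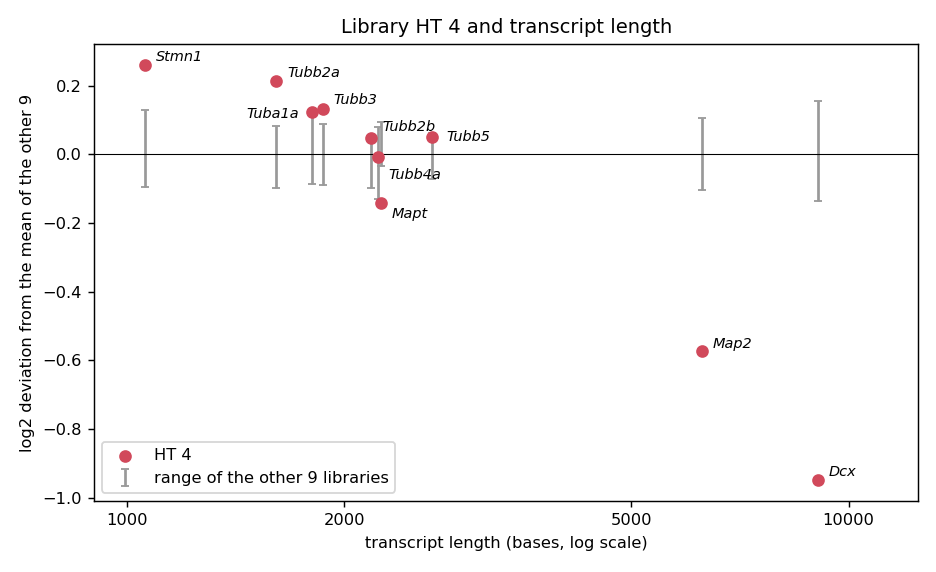
Deviation of HT 4 from the mean of the other 9 libraries (vertical axis, log2) against transcript length in bases (horizontal axis, log scale), 1 point per member, with bars for the range of the other 9 libraries. The points run from 0.26 for *Stmn1* at 1060 bases to -0.95 for *Dcx* at 9074 bases.

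Shares of the β-tubulin total are computed within a library and so do not depend on how libraries were scaled. All 7 β-tubulin genes with a value entered the total on the length-scaled level. In WT, *Tubb2b* made up 32.0% ± 0.33 (SD, n = 5), *Tubb2a* 21.4% ± 0.41, *Tubb5* 20.4% ± 0.25 and *Tubb3* 19.2% ± 0.30. The rest was *Tubb4a* at 3.56% ± 0.14, *Tubb4b* at 3.32% ± 0.12 and *Tubb6* at 0.0754% ± 0.011. *Tubb2a* and *Tubb2b* together held more of the β-tubulin mRNA than all the other isotypes, and *Tubb2b* was the largest share in every library. These statements hold for the transcript lengths used. The lengths of *Tubb5* (2649 bases) and *Tubb3* (1868) exceed the median of their coding transcripts (1705.5 and 1322). Shorter models would raise their shares and lower those of *Tubb2a* and *Tubb2b*. Shares with them were not computed, so whether both statements would still hold is not known.

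The *Tubb2b* share was 31.8, 31.9, 31.7, 30.6 and 31.7% in HT 1 to HT 5. It was 32.2, 31.6, 31.9, 32.5 and 31.9% in WT 1 to WT 5. The groups overlapped, with HT 4 the lowest. HT was lower by 0.47 ± 0.28 percentage points (SE, difference -0.47, exact permutation p = 0.127). The difference was -0.24 without HT 4 (exact permutation p = 0.246) and -0.58 without WT 2 (exact permutation p = 0.0397), so that 1 library decides on which side of 0.05 it falls. A total of 10 shares and ratios was tested without adjustment.

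For the other isotypes the HT minus WT differences were 0.33 ± 0.40 percentage points for *Tubb2a* (exact permutation p = 0.524), -0.045 ± 0.25 for *Tubb5* (0.873), 0.17 ± 0.19 for *Tubb3* (0.413) and -4.9e-04 ± 0.10 for *Tubb4a* (1.00). Without HT 4 the *Tubb5* difference was 0.13, that of *Tubb3* 0.12 and that of *Tubb4a* 0.062. The *Tubb2a* difference was -0.0043 without HT 4, which had the highest *Tubb2a* share, 23.1%, against 20.8% to 21.8% in the other 9. The log2 ratio of *Tubb2a* to *Tubb2b* was -0.54 in HT and -0.58 in WT, a difference of 0.043 ± 0.038 (exact permutation p = 0.349) and of 0.010 without HT 4. Of their 31-base exon words, *Tubb2a* shared 51.1% and *Tubb2b* 37.5% with the other, so that this ratio also rests on how reads were divided.

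**Figure D5:**
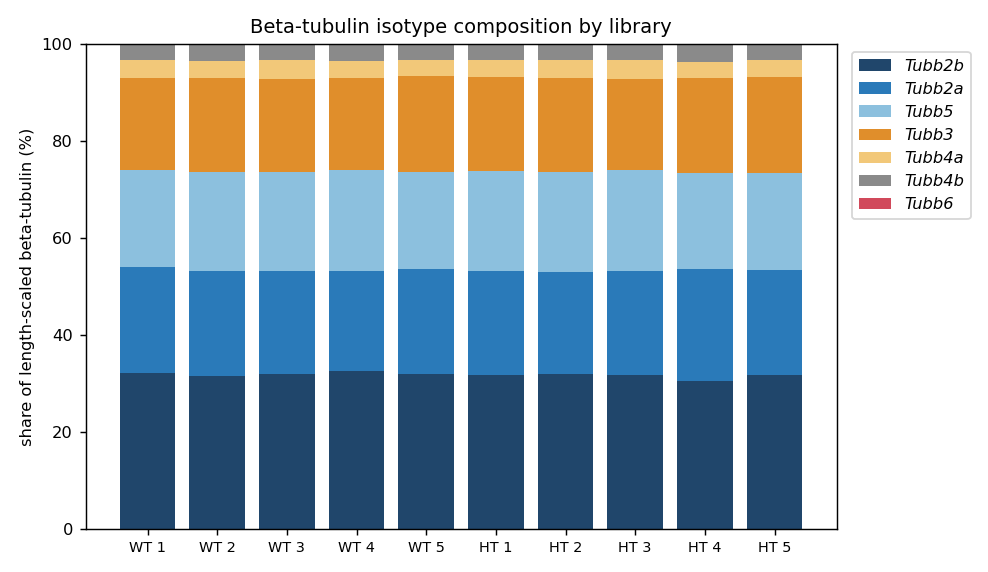
Share of each isotype in the length-scaled β-tubulin total (vertical axis, percent) in each of the 10 libraries, as stacked bars from 0 to 100. *Tubb2b* takes 30.6% to 32.5% in every library, *Tubb4a* and *Tubb4b* take about 3% to 4% each, and *Tubb6*, below 0.1%, is too thin to see.

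In the α-tubulin total, *Tuba1a* held 88.6% ± 0.43 in WT and 88.2% ± 0.77 in HT. The ubiquitous *Tuba1b* held 10.65% and 10.96%, a difference of 0.31 percentage points that was 0.012 without HT 4. These shares also rest on how reads were divided between copies. The log2 ratio of all α- to all β-tubulin was 0.19 ± 0.039 in WT and 0.19 ± 0.043 in HT (difference -0.0065 ± 0.026, exact permutation p = 0.770, and -0.016 without HT 4). The log2 ratio of dendritic *Map2* to axonal *Mapt* was -1.93 ± 0.043 in WT and -1.94 ± 0.22 in HT, a difference of -0.016 ± 0.10 (exact permutation p = 0.952). Without HT 4, where the ratio was -2.32, the difference was 0.079 (exact permutation p = 0.0952).

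Spread between mice was small for these genes. The median CV over the WT libraries was 3.86% for the 10 members, beside 4.90% for the 6181 genes with a mean of at least 1000. In HT the CV was 25.4% for *Dcx* and 17.3% for *Map2*, and 5.23% and 2.13% without HT 4. Across libraries *Tuba1a*, *Tubb2a*, *Tubb2b*, *Tubb3*, *Tubb5* and *Stmn1*, a group chosen after their values were seen, varied together: the 15 correlations between them ranged from 0.69 to 0.92 over the 9 libraries without HT 4. *Dcx* varied the opposite way from these 6 genes (-0.82 to -0.63), *Map2* less so (-0.49 to -0.28), and *Mapt* was weakly positive (0.15 to 0.45). These are descriptions over libraries that share their scaling.

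The 5 genes most like the mean deviation of the 10 members, among 6171 genes with a mean of at least 1000, were *Chd3* (Pearson r 0.94 over 10 libraries and 0.93 without HT 4), *Ntsr1* (0.92 and 0.84), *Map4* (0.90 and 0.82), *Mpped2* (0.90 and 0.82) and *Dpf1* (0.90 and 0.82). Among them *Map4* is itself a MAP, and *Dpf1* encodes a neuronal BAF subunit. The correlations given are the highest of 6171 and are a description without a test. The mean deviation joins members that varied in opposite ways, such as *Stmn1* and *Dcx*.

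The other genes of the microtubule pathway were read from 7 fixed lists, of which 156 of 160 genes were tested. In none did a gene pass the test in either direction (0 of 156, limma). At an unadjusted p under 0.05 there were 3 genes (all higher in HT), beside 3.41% of all genes, and the exact permutation test gave 5, beside 3.9%. On the fitted log2 fold change 76 genes lay above 0 and 80 below. Without HT 4, 14 were higher and 4 lower at an unadjusted p under 0.05, beside 8.38% of all genes in that fit (4.69% higher), and 0 passed after adjustment. An eighth list held 15 neuronal markers outside the microtubule.

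Of the 10 other tubulin genes tested, 4 lay above and 6 below 0, with a median of -0.034, and -0.048 without HT 4. *Tuba1b* read 28110 ± 936 in WT and 28921 ± 3581 in HT, and *Tubb4b* 7025 ± 328 and 7104 ± 742. Their log2 fold changes were 0.034 and 0.012 with all libraries and -0.038 and -0.048 without HT 4. *Tubd1*, the δ-tubulin of centrioles, had the smallest limma p (148 ± 4.84 in WT, 133 ± 9.06 in HT, exact permutation p = 0.0238, unadjusted p = 0.114 in limma). The 22 genes of tubulin folding and autoregulation, which include the CCT chaperonin subunits, had 18 above 0 and a median of 0.022, and -0.029 without HT 4. The chaperonin subunits *Cct2* (log2 fold change 9.7e-04, and -0.021 without HT 4) and *Cct5* (0.0032 and -0.045) had the highest levels per transcript length. *Ttc5*, which recognises the tubulin start shown above, had a log2 fold change of -0.072 ± 0.048 (exact permutation p = 0.0635).

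Among the 22 tubulin-modifying enzymes, 10 lay above 0 and 12 below. *Ttll5*, which adds glutamate to tubulin tails, was the only gene of these lists without overlap between the groups, beside 0.629% of all genes. It ranged from 648 to 772 in HT and from 474 to 644 in WT, a log2 fold change of 0.32 ± 0.088 (exact permutation p = 0.00794, adjusted p = 1.00 in limma, with a range of 0.398 to 1.00 over all alternatives). *Atat1*, the α-tubulin acetyltransferase, and *Sirt2*, a deacetylase, had log2 fold changes of -0.0071 ± 0.042 and 0.053 ± 0.066 (0.016 and 0.027 without HT 4).

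The 21 other structural MAPs, stathmins and CRMPs had 13 genes above 0, with a median of 0.0062, and 0.016 without HT 4. *Stmn2*, the stathmin of growth cones, and *Dpysl3*, a CRMP of the axon, had the highest levels per transcript length, with log2 fold changes of 0.046 and -0.059 (0.016 and 0.024 without HT 4). *Map7d2* had the smallest limma p of the list (log2 fold change 0.080, exact permutation p = 0.0238, adjusted p = 1.00 in limma). Of 41 genes of microtubule ends, severing and nucleation, 13 lay above 0 and 28 below, with a median of -0.024, and 0.017 without HT 4. The plus-end protein *Mapre2* and the linker protein *Clip3* had the highest levels per transcript length, with log2 fold changes of -0.013 and -0.070 (0.058 and 0.064 without HT 4). *Fign*, a severing enzyme, had a log2 fold change of 0.17 ± 0.070 (exact permutation p = 0.0397, adjusted p = 1.00 in limma). *Haus8*, an augmin subunit named after its value was seen, was at 0.21 ± 0.093 with the same exact permutation p.

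Of 23 kinesins and light chains, 9 lay above 0, with a median of -0.023, and 0.023 without HT 4. *Kif1a*, which carries synaptic vesicle precursors, had a log2 fold change of 0.0046 ± 0.099 over 10 libraries and 0.12 without HT 4 (unadjusted p = 0.00638 and adjusted p = 0.447 in limma). *Klc1*, a kinesin light chain, was at 0.014, and -0.018 without HT 4. *Kif16b* had the smallest limma p of the list, at -0.21 ± 0.11 (unadjusted p = 0.0736). The 17 genes of the LIS1 complex and the kinases of MAPs had 9 above 0 and a median of 0.0053, and 0.047 without HT 4. *Pafah1b1*, which encodes LIS1, was at -0.0017 ± 0.045, *Gsk3b* at -0.012 ± 0.10 and *Cdk5r2* at 0.099 ± 0.056. Without HT 4 they were at 0.028, 0.096 and 0.072. Of the 15 neuronal markers outside the microtubule, 10 lay above 0, with *Gap43* at 0.052, *Basp1* at 0.043 and *Nefl* at 0.17 ± 0.079 (exact permutation p = 0.0794, and a log2 fold change of 0.10 without HT 4).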

How the data were processed

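Poly-A RNA of 10 whole brains was sequenced as paired-end TruSeq Stranded mRNA libraries on a NovaSeq instrument. The authors quantified reads with Salmon 1.1.0 on GRCm38 with GC-bias correction, imported them with tximport and deposited a signal for every gene in every library, namely a normalised count: the estimated reads over a DESeq2 1.30.1 size factor. The submitters' processing notes also name R 4.1.1. Neither the annotation release nor any filter on low genes is given in the sources used here. Values were not whole multiples of a read, so that counts were not recovered and no count test was run. Normalised counts summed to 27.2 M to 29.03 M per library (M, 1000000). These sums were taken after division by size factors and are not the sequencing depth. The spread between mice gave the precision.

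The log2(value + 1) values were fitted with limma 3.58.1 in R 4.3.3 (limma-trend, robust, two-sided, no covariate). Genes with a mean of at least 10 were tested (17020, with 1424 left out), with Benjamini-Hochberg adjustment over all of them and a threshold of 0.05. Fold changes on this scale understate the change of low genes. Exact permutation tests were two-sided over the 252 assignments of 10 libraries, for which the smallest p is 0.00794. The fit was tested on simulated data. GENCODE M21 (GRCm38) matched 18431 of 18444 identifiers and gave symbols, positions and the transcript with the longest coding sequence for lengths. A total of 0 value columns lacked a sample.

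The members and the gene lists were chosen with earlier results of these data known. All members are named, and in each list the 2 genes with the highest level and the gene with the smallest limma p. For likeness the 5 closest genes are named. P-values measure the spread between mice, with litters not given. Samples sharing a replicate number were compared for shared deviations (correlations of -0.104 to 0.093). Most HT libraries were closest to the WT library of their own number. The main fit used no pairing, and whether the numbers stand for a litter or batch was not tested. Other scalings, pseudocounts, filters, weights, a length and GC correction, the replicate block and each left-out library were tried.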

Additional observations from a re-analysis of the deposited data

Results flagged for a closer look

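Each group of 5 values was checked for a library whose gap to its nearest neighbour is more than 0.71 of the group's range. Of 90 groups checked, 13 passed this limit, where chance gives about 4.5, and the library was HT 4 in 12 of the 13. Among the members, HT 4 was lowest for *Dcx* (18795, with the next library at 36194, a gap ratio of 0.805) and for *Map2* (32948, with the next at 50365, 0.879). The *Tubb2b* share of the β-tubulin total was also lowest in HT 4 (30.6% against 31.7%, 0.832), and the *Tubb4b* share was highest (3.69% against 3.32%, 0.757). HT 4 was lowest for *Arid1b* (0.735).

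Among other pathway genes HT 4 was highest for *Tuba1b* (0.745) and *Cct5* (0.814), and lowest for *Dpysl3* (0.867), *Mapre2* (0.733), *Clip3* (0.876), *Kif1a* (0.759) and *Gsk3b* (0.845). In WT the value of *Cct5* in WT 2 (6745, with the next at 6130) gave a ratio of 0.727. Chance flags about 1 in 20 groups, and values of 1 library in several genes are not independent flags.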

How the results depend on the processing

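No member and no pathway gene passed the threshold under any of the 21 alternatives run. The number of genes past it over the whole table was 0 in the main fit. It was 2 with sample weights, 2 with the length and GC trend removed and 2 without HT 4. It was also 2 with the trend removed and HT 4 left out. That setting was added after the data were seen, as was the longest coding transcript for the shares. *Arid1b* was 1 of the 2 each time (adjusted p in limma, in this order, 6.87e-04, 0.0203, 2.47e-04 and 1.11e-05). Without HT 4 the log2 fold change turned from -0.11 to 0.094 for *Dcx* and from -0.017 to 0.11 for *Map2*. The fold changes that turned sign under other settings follow. Under sample weights they were -0.0062 (*Tubb2a*), 0.0075 (*Tubb4a*), 0.050 (*Dcx*), 0.090 (*Map2*), 0.025 (*Mapt*), -0.0023 (*Stmn1*), -0.017 (*Tuba1b*), -0.028 (*Tubb4b*), -0.012 (*Cct2*), -0.029 (*Cct5*), 0.014 (*Atat1*), 0.010 (*Dpysl3*), 0.047 (*Mapre2*), 0.036 (*Clip3*), -0.0051 (*Klc1*), 0.021 (*Pafah1b1*) and 0.063 (*Gsk3b*). With upper-quartile scaling they were 0.0090 (*Tubb4a*), 0.0063 (*Tubb5*), 0.0082 (*Mapt*), 0.0024 (*Atat1*) and 0.0078 (*Pafah1b1*), and with scaling to the library total -0.0056 (*Cct2*), -0.0034 (*Cct5*) and -0.0019 (*Kif1a*). With the trend removed they were 0.0060 (*Tubb5*), 0.014 (*Map2*), 0.0092 (*Mapre2*) and 0.042 (*Pafah1b1*). With the trend removed and HT 4 left out they were 0.035 (*Tubb4a*), 0.0042 (*Tubb5*), 0.042 (*Dcx*), 0.088 (*Map2*), 0.063 (*Mapt*), -0.0022 (*Tuba1b*), -0.011 (*Tubb4b*), -0.0082 (*Cct2*), -0.026 (*Cct5*), 0.058 (*Atat1*), 0.014 (*Dpysl3*), 0.055 (*Mapre2*), 0.088 (*Clip3*), 0.015 (*Pafah1b1*) and 0.11 (*Gsk3b*). Without length scaling the *Tubb4a* share differed by 0.0043 percentage points. The cause of each turn was not tested.

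With 1 library left out in turn, log2 fold changes ranged from -0.040 to 0.017 (*Tuba1a*), -0.024 to 0.054 (*Tubb2a*), -0.037 to 0.0015 (*Tubb2b*), -0.015 to 0.040 (*Tubb3*), -0.021 to 0.032 (*Tubb4a*), -0.016 to 0.016 (*Tubb5*), -0.18 to 0.094 (*Dcx*), -0.060 to 0.11 (*Map2*), -0.028 to 0.031 (*Mapt*) and -0.029 to 0.060 (*Stmn1*). For pathway genes they ranged from -0.038 to 0.072 (*Tuba1b*), -0.048 to 0.050 (*Tubb4b*), -0.021 to 0.019 (*Cct2*), -0.045 to 0.038 (*Cct5*), -0.023 to 0.016 (*Atat1*), -0.084 to 0.024 (*Dpysl3*), -0.045 to 0.058 (*Mapre2*), -0.11 to 0.064 (*Clip3*), -0.046 to 0.12 (*Kif1a*), -0.018 to 0.037 (*Klc1*), -0.020 to 0.028 (*Pafah1b1*) and -0.047 to 0.096 (*Gsk3b*). Share differences, in percentage points, ranged from -0.0043 to 0.50 (*Tubb2a*), -0.58 to -0.24 (*Tubb2b*), -0.058 to 0.062 (*Tubb4a*), -0.14 to 0.13 (*Tubb5*), -0.057 to 0.064 (*Tubb4b*) and -0.0074 to 2.8e-04 (*Tubb6*), the log2 ratio of *Map2* to *Mapt* from -0.059 to 0.079 and that of α- to β-tubulin from -0.018 to 0.0080. The number of genes past the threshold was 0 to 2, with HT 4 the library whose absence gave 2. Same-numbered samples correlated at 0.091, 0.084, 0.082, -0.104 and 0.093. In this comparison 4 of 5 HT libraries matched their own number best. Whether the numbers stand for a shared litter or batch was not tested. The main fit and the exact permutation tests used no pairing. With the replicate block 0 genes passed, 558 had an unadjusted p under 0.05, the *Dcx* log2 fold change was -0.11, and no call changed. With 5 mice a group, the data leave room for any difference within the intervals given. The intervals hold for each gene alone, and larger differences could also miss the threshold over all genes. *Arid1b*, with a log2 fold change of -0.68, had an adjusted p of 0.390 in limma.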
